A study of Saccharomyces cerevisiae with 9 samples.

Results

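The hexokinase and upper glycolysis genes of Saccharomyces cerevisiae were taken from the deposited table by their systematic names: HXK1 (YFR053C), HXK2 (YGL253W), GLK1 (YCL040W), EMI2 (YDR516C), PGI1 (YBR196C), PFK1 (YGR240C), PFK2 (YMR205C) and FBA1 (YKL060C). All 8 were found among the 6357 rows of the table. The yeast was CAT-1, a strain of Brazilian fuel-ethanol plants, reused over 5 fed-batch fermentations on a sugar cane molasses medium with an acid wash between cycles, and harvested 4 h into the last one. The 3 groups shared this strain and regime and had 3 libraries each: cultures without an agent (control), cultures with the antifoam agent labelled Ind_B and cultures with the antifoam agent labelled Ind_Z. What the agents are, and at which dose, is not stated in the labels, nor is it stated that the libraries of a group came from separate cultures, so p-values measure the spread between these libraries, which may be technical.

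These enzymes carry sugar from its entry into the cell to the cleavage into triose phosphates. Hexose is first phosphorylated, by the hexokinases Hxk1 and Hxk2, which accept glucose and fructose, or by the glucokinase Glk1, which accepts glucose but not fructose; EMI2 encodes the paralogue of Glk1. In laboratory yeast HXK2 is the main isoenzyme on abundant glucose, where its product also takes part in glucose repression, and HXK1 and GLK1 are repressed by glucose. Phosphoglucose isomerase (PGI1) then makes fructose-6-phosphate, phosphofructokinase, an enzyme built of subunits from PFK1 and PFK2, adds another phosphate at a step that commits sugar to glycolysis, and aldolase (FBA1) splits the product. Molasses sugar is mostly sucrose, which yeast hydrolyses to glucose and fructose.

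The libraries held 5900571 to 18245935 counts. Levels are given as CPM, read counts relative to a library size scaled by TMM, which is set by the bulk of genes. In such bulk libraries, fewer cells expressing a gene and less of its RNA per cell cannot be told apart. Where 3 values are listed for a group, they follow the order control1, control12, control13 or replicates 1, 2, 3. The control library named control13 stood apart: over all rows its Spearman correlation with the other controls was 0.957 and 0.959, against 0.979 to 0.995 for the other pairs within a group, and its TMM factor was 0.757 against 0.927 to 1.19 elsewhere. For all 8 genes control13 exceeded the mean of control1 and control12, by 1.57-fold for PFK1 to 2.57-fold for HXK2, while the median of all genes tested differed by 0.98-fold. Tests are therefore given with and without that library.

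Per kilobase of coding length, levels ran from FBA1 at the top to HXK2 or EMI2 at the bottom. FBA1 was the most abundant, with 9870 ± 5003 CPM per kilobase in control, 7596 ± 958 in Ind_B and 10070 ± 571 in Ind_Z (mean ± SD, n = 3), and it ranked above 99.95% of protein-coding genes in all 9 libraries. PGI1 came next with 1765 ± 603, 1418 ± 64.2 and 1711 ± 103 CPM per kilobase in the same order, and FBA1 lay 4.74 to 6.42-fold above it within single libraries. PFK1 and PFK2 shared a level, at 510 ± 142 and 472 ± 178 CPM per kilobase in control, 406 ± 49.9 and 405 ± 35.8 in Ind_B, and 603 ± 17.1 and 600.2 ± 14.1 in Ind_Z. By group means the hexose-phosphorylating genes were lowest, except HXK1 in Ind_Z. There its mean, 665 ± 164 CPM per kilobase, was above those of PFK1 and PFK2, with overlapping libraries. In control13 HXK1 (709) and GLK1 (703) also lay above PFK1 (673) and PFK2 (677). In control HXK1 (431 ± 243) and GLK1 (424 ± 242) did not differ beyond their spread, and EMI2 (208 ± 116) and HXK2 (97.4 ± 58) followed. HXK2 was below EMI2 in every control and Ind_B library and above it in every Ind_Z library.

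HXK1, the hexokinase isoenzyme repressed by glucose in laboratory yeast, was at 389, 461 and 1034 CPM in control. It was at 246, 289.9 and 289 CPM in Ind_B, and at 772, 901 and 1235 CPM in Ind_Z. The Ind_B libraries all lay below every other library, and the Ind_Z libraries all lay above control1 and control12 but on both sides of control13.

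HXK2, the hexokinase isoenzyme that also acts in glucose repression, was the scarcer of the pair in all 9 libraries. It was at 86.5, 100.5 and 239.8 CPM in control, at 103, 126 and 127 CPM in Ind_B, and at 241, 333 and 306 CPM in Ind_Z. The lowest Ind_Z library was thus level with control13, and more than 1.5-fold above the other 5 libraries.

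GLK1, the glucokinase gene, was at 437, 416 and 1057 CPM in control, at 456, 401 and 341 CPM in Ind_B, and at 556, 552 and 644 CPM in Ind_Z. Ind_Z lay above Ind_B without overlap, and control13 above all. EMI2, its paralogue, was at 202, 221 and 514 CPM in control, at 142, 201 and 172 CPM in Ind_B, and at 199, 199.8 and 248 CPM in Ind_Z. Every Ind_B library was below every control library for EMI2, the closest values being 201 in Ind_B replicate 2 and 202 in control1.

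**Figure D1:**
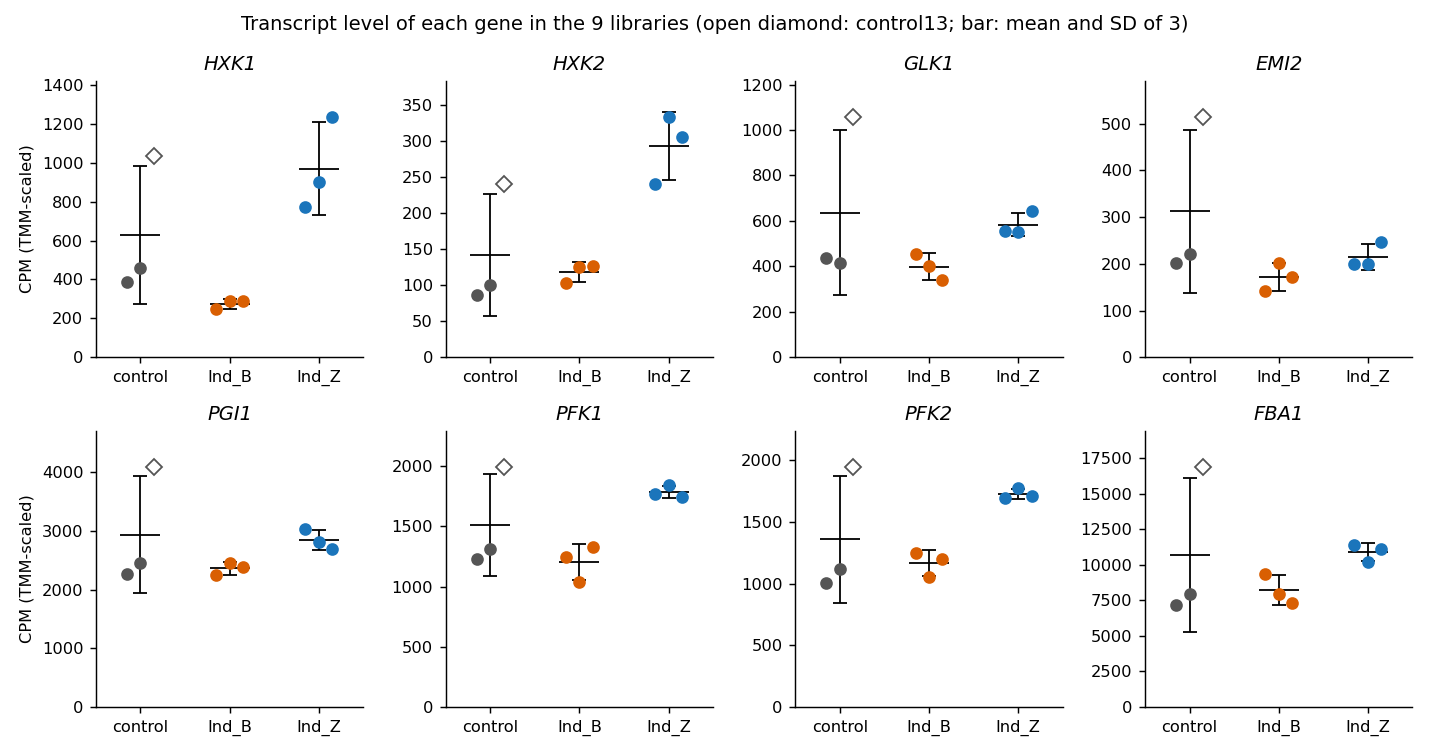
CPM of each of the 8 genes (vertical axis, from 0) in the control, Ind_B and Ind_Z libraries, 1 point per library, with mean and SD of 3 libraries. The open diamond, control13, is the highest control in every panel, and the Ind_Z points lie above the Ind_B points for every gene but EMI2.

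In the make-up of the hexose-phosphorylating transcripts control13 resembled the other controls. HXK1 supplied 34.9%, 38.4% and 36.3% of the summed counts of HXK1, HXK2, GLK1 and EMI2 in control. It supplied 25.95%, 28.5% and 31.1% in Ind_B and 43.7%, 45.4% and 50.8% in Ind_Z, so no 2 groups overlapped. HXK2 took 8.19 ± 0.37% in control, 12.3 ± 1.41% in Ind_B and 14.3 ± 2.2% in Ind_Z (mean ± SD, n = 3), and its control libraries (7.77% to 8.43%) lay below the range of both antifoam groups (10.85% to 16.8%).

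GLK1 had the largest share in Ind_B, at 41.4 ± 5.98%, and was level with HXK1 in control, at 37 ± 2.24% against 36.6 ± 1.77%. In Ind_Z the GLK1 share was 28.6 ± 2.57%. The Ind_B libraries were at 48.15%, 39.4% and 36.7% for GLK1, and the controls ranged from 34.7% to 39.2%. EMI2 held 18.2 ± 0.21% in control and 17.8 ± 2.42% in Ind_B, and 10.5 ± 0.66% in Ind_Z, where its highest library (11.3%) was below the lowest elsewhere (15.04%). The widest 95% Wilson interval of a share reached 0.946 percentage points to either side, covering counting error only. The 4 coding lengths are 1458 to 1503 bases, and shares per coding length differed from these by at most 0.63 points. The shares are descriptions and were not tested, since the 4 genes were grouped with earlier results known. How often shares within other sets of genes separate the groups was not examined.

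**Figure D2:**
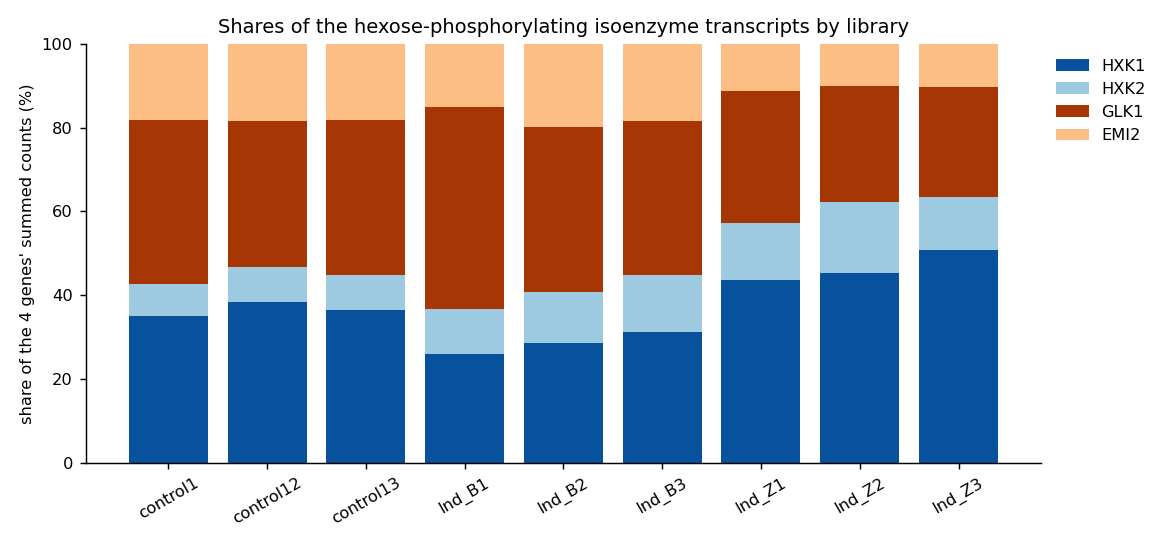
Share of the summed counts of HXK1, HXK2, GLK1 and EMI2 (vertical axis, %) taken by each gene in each of the 9 libraries, stacked to the total. The 3 control bars look alike, the HXK1 segment is shortest in Ind_B (25.95% to 31.1%) and tallest in Ind_Z (43.7% to 50.8%), and the EMI2 segment is shortest in Ind_Z.

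The ratio of HXK1 to HXK2, per coding length, separated all 3 groups. It was 4.5, 4.6 and 4.32 in control, 2.4, 2.31 and 2.28 in Ind_B, and 3.21, 2.71 and 4.05 in Ind_Z. The ratio cancels the library scaling, and control13, the lowest control, lay above all 6 antifoam libraries. An exact permutation test over the 3 groups gave p = 0.00357, the smallest that its 1680 assignments allow, and p = 0.0107 after adjustment over the 3 ratios tested. The genes of the 3 ratios were chosen with earlier results of these data known, which this adjustment does not cover. How many other pairs of genes separate the groups in this way was not examined. Against control the log2 ratio differed by −0.94 in Ind_B and −0.45 in Ind_Z, and Ind_Z exceeded Ind_B by 0.49; each pairwise exact permutation test gave p = 0.1, the smallest it can give with 3 against 3. Without any 1 of control1, control12, control13 or Ind_B replicate 3 the adjusted exact p was 0.0857, and without Ind_B replicate 2 it was 0.075.

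The ratio of GLK1 to EMI2 was 2.16, 1.88 and 2.06 in control, 3.2, 2 and 1.99 in Ind_B, and 2.79, 2.76 and 2.6 in Ind_Z. All Ind_Z libraries lay above all controls, while Ind_B replicate 1 was the highest of the 9 and the other 2 Ind_B libraries lay among the controls. The exact permutation test over the 3 groups gave p = 0.196 (0.196 adjusted). Without Ind_B replicate 1 the exact permutation test gave p = 0.025 (0.0375 adjusted), with a mean log2 ratio of 1.02 in control, 0.99 in Ind_B and 1.44 in Ind_Z. Leaving out any other single library gave p = 0.196 to 0.35 in the exact permutation test.

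The subunit genes PFK1 and PFK2 stayed near parity. Their ratio per coding length was 1.18, 1.14 and 0.995 in control, 0.97, 0.961 and 1.07 in Ind_B, and 1.01, 1.01 and 0.991 in Ind_Z. The groups overlapped, and the exact permutation test over the 3 groups gave p = 0.179 (0.196 adjusted). Control overlapped the antifoam groups through control13 only, since control1 and control12 lay above every antifoam library. Without control13 the exact permutation test gave p = 0.0714 (0.107 adjusted). The log2 differences with all libraries were −0.14 for Ind_B and −0.13 for Ind_Z against control, and both were −0.21 without control13.

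**Figure D3:**
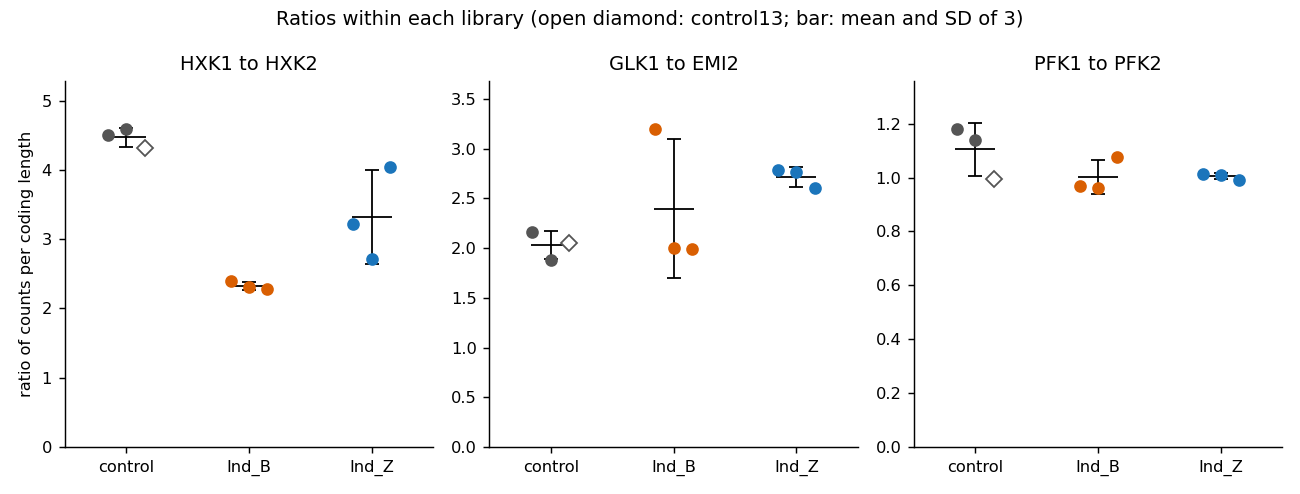
Ratio of counts per coding length within each library (vertical axes, from 0) for HXK1 to HXK2, GLK1 to EMI2 and PFK1 to PFK2, 1 point per library with mean and SD of 3. For HXK1 to HXK2 the controls cluster at 4.32 to 4.6 and Ind_B at 2.28 to 2.4, with Ind_Z between them; the PFK1 to PFK2 points lie near 1.

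Downstream of phosphorylation, PGI1, the isomerase gene, was at 2273, 2449 and 4094 CPM in control, at 2245, 2455 and 2383 CPM in Ind_B, and at 3037, 2809 and 2699 CPM in Ind_Z. Ind_B overlapped control1 and control12, and Ind_Z lay above them and below control13.

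PFK1, encoding the alpha subunit of phosphofructokinase, was at 1226, 1314 and 1996 CPM in control, at 1248, 1040.1 and 1326 CPM in Ind_B, and at 1772, 1844 and 1746 CPM in Ind_Z. PFK2, encoding the beta subunit, was at 1008, 1120.4 and 1949 CPM in control, at 1250.45, 1052 and 1198 CPM in Ind_B and at 1699, 1775 and 1712 CPM in Ind_Z. For both genes the Ind_Z libraries were tightly grouped above all Ind_B libraries and below control13. FBA1, the aldolase gene, was at 7130.1, 7970.1 and 16880.2 CPM in control, at 9345, 7937 and 7328 CPM in Ind_B and at 11364, 10182 and 11081 CPM in Ind_Z, also with Ind_Z above all Ind_B libraries and below control13.

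Set against PGI1 within each library, the summed kinase transcripts per coding length were at 0.55, 0.55 and 0.78 in control, at 0.438 to 0.472 in Ind_B and at 0.656 to 1.02 in Ind_Z. The Ind_B values lay below all others, and control13 lay inside the Ind_Z range. The mean of PFK1 and PFK2 relative to PGI1 was 0.274 to 0.283 in control, 0.243 to 0.317 in Ind_B and 0.326 to 0.367 in Ind_Z, which did not overlap the other groups. FBA1 relative to PGI1 overlapped in all 3 groups, at 4.84 to 6.36, 4.74 to 6.42 and 5.59 to 6.33. The sum of HXK1 and HXK2 relative to the sum of GLK1 and EMI2 was 0.767 to 0.907 in control, 0.6 to 0.836 in Ind_B and 1.38 to 1.78 in Ind_Z, so hexokinase transcripts exceeded the glucokinase pair in the Ind_Z libraries and in no other. These step ratios were chosen after the values were seen and were not tested, and how often ratios of other genes separate the groups was not examined.

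**Figure D4:**
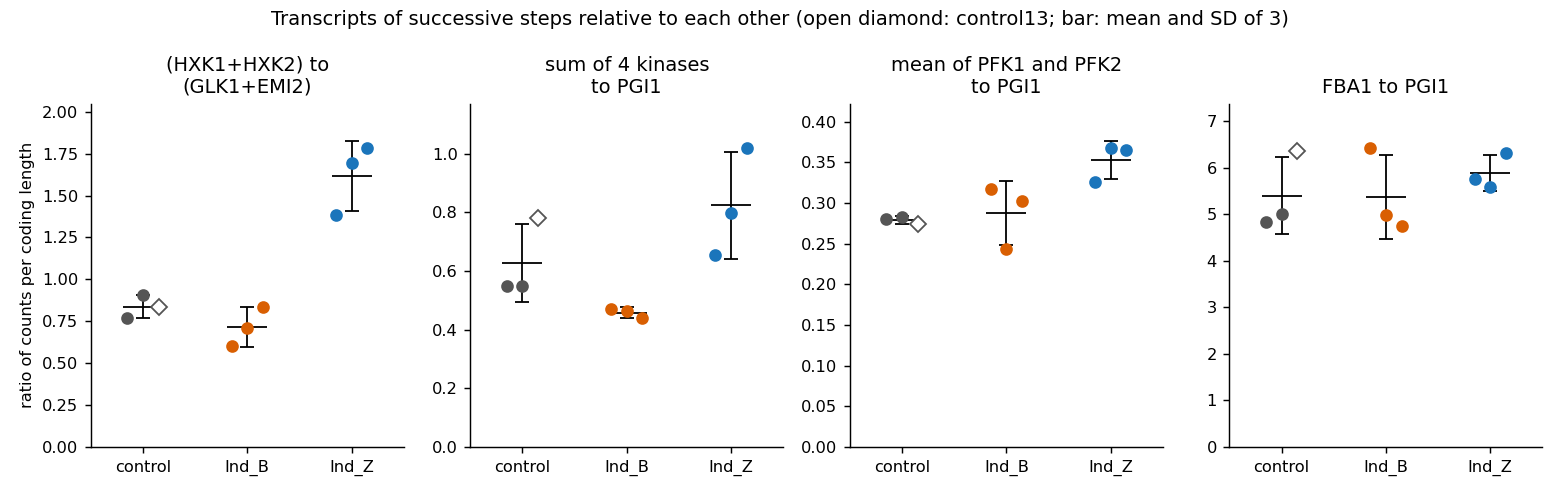
Within-library ratios of counts per coding length (vertical axes, from 0) between isoenzyme pairs and between steps of the pathway, 1 point per library with mean and SD of 3. In the left panel the Ind_Z points (1.38 to 1.78) lie above all others, and in the right panel the FBA1 to PGI1 points overlap in the 3 groups.

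In Ind_Z against Ind_B, the comparison of the antifoams with each other, all 8 genes had a positive log2 fold change, with a median of 0.56 against −0.03 over all genes tested. The differences were largest for the hexokinases, 1.82 ± 0.35 for HXK1 and 1.31 ± 0.34 for HXK2 (log2 fold change ± SE), followed by 0.57 ± 0.21 for PFK1, 0.57 ± 0.24 for PFK2, 0.55 ± 0.32 for GLK1, 0.41 ± 0.34 for FBA1, 0.33 ± 0.32 for EMI2 and 0.27 ± 0.24 for PGI1. For 7 of the 8, all but EMI2, the 3 Ind_Z libraries lay above the 3 Ind_B libraries; 21.4% of all genes did so and 21.5% lay the other way. In the fit to all 9 libraries edgeR's quasi-likelihood test, adjusted over 6137 genes by Benjamini-Hochberg, called none of the 8 and 0.424% of all genes, and the nearest were HXK1 (adjusted p = 0.0531) and HXK2 (0.0767); 4 members (HXK1, HXK2, PFK1 and PFK2) had an unadjusted p under 0.05, as did 25.5% of all genes. DESeq2 called HXK1, HXK2 and PFK1, and 10.4% of all genes. For 5 members (HXK1, HXK2, PFK1, PFK2 and FBA1) every Ind_B library lay below the control mean of log2 CPM and every Ind_Z library above it, as for 8.57% of all genes.

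Neither group of this comparison contains control13, which entered through the shared estimates of the fit. Without it edgeR's quasi-likelihood test called 5 of the 8 as higher in Ind_Z, HXK1 (adjusted p = 0.000174), HXK2 (0.000239), GLK1 (0.0114), PFK1 (0.00965) and PFK2 (0.00698), where 23.5% of all genes were called and 14.2% were called higher. The fold changes were almost the same, 1.83 for HXK1 and 1.32 for HXK2. A fit on the 6 antifoam libraries alone called the same 5 genes with edgeR at adjusted p of 0.000627 to 0.0238, where 20.5% of all genes were called.

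In Ind_Z against control, the question was which transcripts differ in cells fermenting with that agent. HXK2 had the largest difference, 1.05 ± 0.33 on the log2 scale (edgeR adjusted p = 0.135), followed by HXK1 at 0.63 ± 0.34 (0.34), PFK2 at 0.35 ± 0.24 (0.46) and PFK1 at 0.24 ± 0.21 (0.559). The remaining values were 0.03 ± 0.34 for FBA1, −0.04 ± 0.24 for PGI1, −0.12 ± 0.32 for GLK1 and −0.53 ± 0.32 for EMI2. No member passed edgeR's quasi-likelihood test, which called 2.13% of all genes; 1, HXK2, had an unadjusted p under 0.05, as did 19.3% of all genes, and was the 1 member called by DESeq2, with 7.32% of all genes. HXK2 was also the 1 member whose groups did not overlap, as for 13.5% of all genes higher and 12.6% lower, with 241 against 239.8 CPM as the closest libraries.

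Without control13 edgeR's quasi-likelihood test called 5 of the 8 higher in Ind_Z than in control, where 19.6% of all genes were called and 13.1% were called higher. HXK2 rose by 1.65 ± 0.16 (adjusted p = 0.000758), HXK1 by 1.2 ± 0.2 (0.00418), PFK2 by 0.7 ± 0.14 (0.00728), PFK1 by 0.5 ± 0.14 (0.0356) and GLK1 by 0.46 ± 0.14 (0.0493). FBA1 (0.53 ± 0.18, adjusted p = 0.0638 by edgeR), PGI1 (0.27 ± 0.14, 0.177) and EMI2 (0.03 ± 0.15, 0.902) did not pass. The members' median was then 0.51, against −0.02 over all genes.

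In Ind_B against control, which asks the same of the other agent, all 8 genes had a negative log2 fold change with all libraries, with a median of −0.35 against 0.01 over all genes. HXK1 and EMI2 were furthest down, at −1.19 ± 0.34 (edgeR adjusted p = 0.139) and −0.86 ± 0.32 (0.207), then GLK1 at −0.67 ± 0.32 (0.292), FBA1 at −0.38 ± 0.34, PFK1 at −0.33 ± 0.21, PGI1 at −0.32 ± 0.24, HXK2 at −0.25 ± 0.33 and PFK2 at −0.22 ± 0.24. None passed edgeR's quasi-likelihood test, which called 0.147% of genes; 2, HXK1 and EMI2, had an unadjusted p under 0.05, as did 19.1% of all genes, and these were the 2 whose Ind_B libraries lay below all controls, as for 9.21% of all genes, while 12% lay above. DESeq2 called HXK1, and 4.84% of all genes. Without control13 the sign held for 5 of the 8 and turned for HXK2 (0.33 ± 0.15), PFK2 (0.12 ± 0.13) and FBA1 (0.11 ± 0.18). Of those that held, HXK1 was then at −0.64 ± 0.19 (edgeR adjusted p = 0.172) and EMI2 at −0.31 ± 0.15. GLK1 (−0.1 ± 0.14), PFK1 (−0.08 ± 0.14) and PGI1 (−0.01 ± 0.13) had changes smaller than their SE. The members' median was at −0.05. No member was called, where 0.728% of genes were.

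The test of all 3 groups at once called 0 of the 8 with all libraries (2% of all genes) and 5 without control13 (23.7% of all genes), HXK1, HXK2, GLK1, PFK1 and PFK2. With all libraries HXK1 came nearest (adjusted p = 0.054 by edgeR) and 2, HXK1 and HXK2, had an unadjusted p under 0.05, as did 26.7% of all genes; DESeq2 called these 2.

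**Figure D5:**
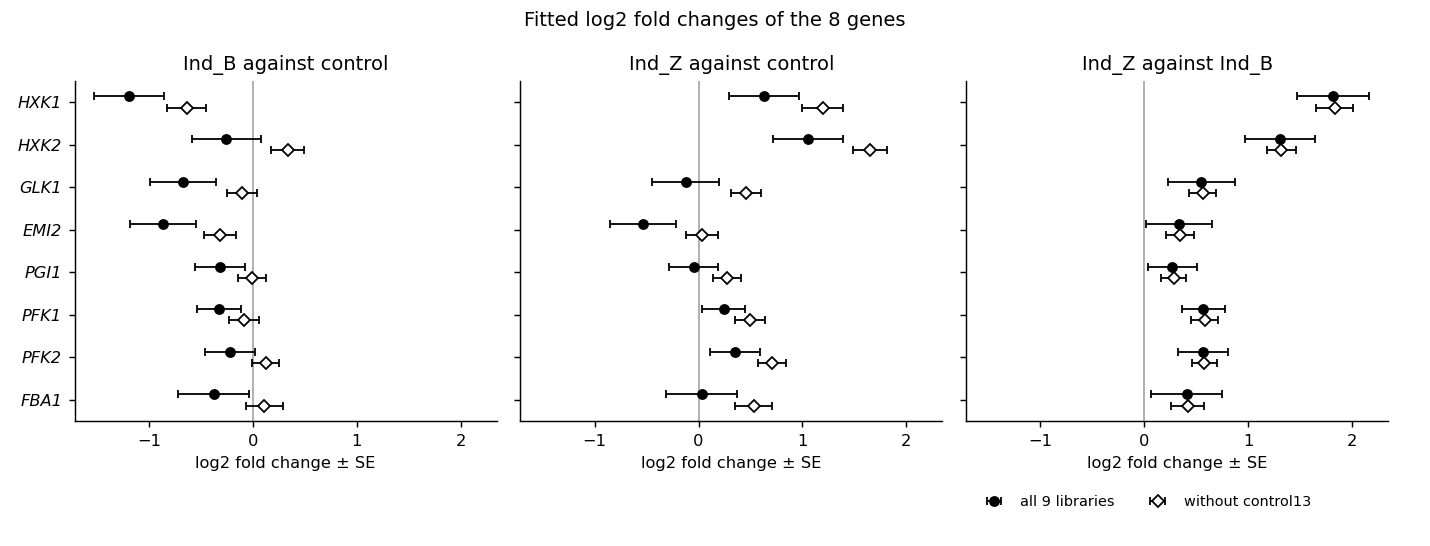
Fitted log2 fold change ± SE (horizontal axes) of the 8 genes in Ind_B against control, Ind_Z against control and Ind_Z against Ind_B, with all 9 libraries (filled circles) and without control13 (open diamonds). Leaving out control13 moves all values of both comparisons with control upward and moves those of Ind_Z against Ind_B little, with narrower errors.

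Genes around upper glycolysis were read from 6 lists. The median log2 fold change of all genes was 0.01 for Ind_B against control and −0.03 for both Ind_Z comparisons, and an unadjusted p under 0.05 was reached by 19.1%, 19.3% and 25.5% of all genes in Ind_B against control, Ind_Z against control and Ind_Z against Ind_B. Of the 10 lower glycolysis genes none passed edgeR's test in any comparison with all libraries, and 2, 3 and 4 had an unadjusted p under 0.05; their medians were −0.56 for Ind_B against control, −0.01 for Ind_Z against control and 0.42 for Ind_Z against Ind_B. Without control13 these medians were −0.07, 0.5 and 0.43. The lowest p-values belonged to ENO2, an enolase gene (−1.29 ± 0.53), PYK2, the minor pyruvate kinase gene (−0.46 ± 0.16), and TDH2, a glyceraldehyde-phosphate dehydrogenase gene (1.81 ± 0.5), in that order of comparisons; without control13 the values were −0.36 ± 0.31, −0.28 ± 0.12 and 1.82 ± 0.22. Without control13 edgeR called 3 lower glycolysis genes higher in Ind_Z against control (TDH2, TDH3 and TPI1, the triosephosphate isomerase gene). In Ind_Z against Ind_B it called 6 higher. Of all genes 13.1% and 14.2% were called higher in these comparisons without control13. TDH2 and ENO2 have close paralogues, TDH3 and ENO1, so their counts are uncertain.

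None of the 11 genes that draw on glucose-6-phosphate (trehalose, glycogen and pentose phosphate enzymes) passed with all libraries either, where 8, 0 and 5 had an unadjusted p under 0.05, and their medians were −0.62, −0.11 and 0.58 in the same order. Without control13 the medians were −0.22, 0.23 and 0.6. Those of lowest p were GSY2, a glycogen synthase gene (−1.18 ± 0.25 for Ind_B against control), ZWF1, the glucose-6-phosphate dehydrogenase gene (−0.94 ± 0.57 for Ind_Z against control), and TPS2, the trehalose phosphate phosphatase gene (0.58 ± 0.15 for Ind_Z against Ind_B). ZWF1 turned to 0.23 ± 0.28 without control13. The fitted change in Ind_B against control was negative for all 11 with all libraries and for 9 without control13, where PGM1 and GSY1 were above 0; in Ind_Z against control it was positive for 5 with all libraries and 11 without control13. In Ind_Z against Ind_B it was positive for all 11 in both fits. Without control13 edgeR called 2 lower in Ind_B against control (GSY2 and PGM2, a phosphoglucomutase gene), where 0.728% of all genes were called. It called 2 pentose phosphate genes (GND1 and SOL3) higher in Ind_Z against control and 7 genes higher in Ind_Z against Ind_B. Of all genes 13.1% and 14.2% were called higher in these Ind_Z comparisons.

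Genes for fructose bisphosphate control and gluconeogenesis (5), where FBP26 encodes fructose-2,6-bisphosphatase and PCK1 a gluconeogenic enzyme, had no calls, with 1, 0 and 2 at an unadjusted p under 0.05. FBP26 had the lowest p for Ind_B against control (0.36 ± 0.15) and PCK1 for both Ind_Z comparisons (−0.29 ± 0.19 and −0.51 ± 0.18). The 4 glycolytic transcription factor genes also had none, with 1 at an unadjusted p under 0.05 in each comparison: TYE7 was at −0.53 ± 0.24 in Ind_B against control, and GCR1, an activator of glycolytic genes, at 0.33 ± 0.12 in Ind_Z against control and 0.45 ± 0.12 in Ind_Z against Ind_B. Without control13, FBP26 was at 0.2 ± 0.11 and TYE7 at −0.19 ± 0.15 in Ind_B against control. In that fit edgeR called FBP26 lower in Ind_Z against Ind_B and GCR1 higher in both Ind_Z comparisons. Of all genes 19.6% were then called in Ind_Z against control and 23.5% in Ind_Z against Ind_B.

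Among the 7 glucose repression genes, which include MIG1, whose repressor product works with Hxk2, 1 passed edgeR's test, which called 2.13% of all genes there. NRG1, another repressor of glucose-repressed genes, rose by 0.93 ± 0.2 in Ind_Z against control (edgeR adjusted p = 0.0457), from 81.9 ± 21.6 to 156 ± 27.2 CPM. In Ind_B against control, Ind_Z against control and Ind_Z against Ind_B, 2, 3 and 0 of the 7 had an unadjusted p under 0.05. Of all genes 19.1%, 19.3% and 25.5% did so. Unlike the members, NRG1 was lower in control13 (59.8 CPM) than in control1 (82.9) and control12 (103). Without control13 NRG1 was at 0.76 ± 0.16 in Ind_Z against control (edgeR adjusted p = 0.0119), where 19.6% of all genes were called. NRG1 was at 0.65 ± 0.2 in Ind_B against control with all libraries and 0.47 ± 0.16 without control13, not called in either fit. With all libraries MED8, at −0.2 ± 0.12, had the lowest p of the list in Ind_Z against Ind_B. MIG1 itself was at −0.11 ± 0.2 and −0.08 ± 0.2 against control in Ind_B and Ind_Z. Of 3 other sugar kinase genes none was called with all libraries (2, 1 and 0 at an unadjusted p under 0.05). GAL1, galactokinase, was at 0.61 ± 0.16 in Ind_B against control and −0.34 ± 0.16 in Ind_Z against Ind_B. YLR446W was at 0.34 ± 0.11 in Ind_Z against control. It was called there without control13, as were 19.6% of all genes.

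Likeness of pattern was described by Pearson's r of log2 CPM over the 9 libraries among genes whose mean count reached 50; the points share libraries and scaling, and control13 was the highest library for 6 of the 8 members. HXK1 and HXK2 correlated at 0.872, GLK1 and EMI2 at 0.85, PFK1 and PFK2 at 0.961, GLK1 and FBA1 at 0.958, and HXK2 and EMI2, the lowest pair, at 0.423. Closest to HXK1 were the row YFR052C-A (0.983), ORA1 (0.976) and TPS2 (0.975); closest to HXK2 were VPH1 (0.994), DLD3 (0.992) and TIF1 (0.983), the last with a near-identical copy, TIF2. Closest to GLK1 were ADH1 (0.993), SER2 (0.986) and IGD1 (0.985), and closest to EMI2 were TRX1 (0.99), GND2 (0.982) and PST2 (0.964). PGI1 was most like DPB2 (0.988), CSA1 (0.977) and ACM1 (0.968), PFK1 like ARO2 (0.993), MNN2 (0.99) and TRP5 (0.989), PFK2 like PMT2 (0.994), EFB1 (0.991) and ARC35 (0.983), and FBA1 like TPI1 (0.978), YPS3 (0.978) and ISC1 (0.972).

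Counts of paralogues could be confused if reads matched both. In the R64 reference of strain S288C the coding sequences of HXK1 and HXK2 were 77.8% identical, with 23 bases as the longest identical run, and those of GLK1 and EMI2 were 69% identical, with 15 bases. PFK1 and PFK2 were 64.8% identical, with 25 bases. CAT-1 may differ from S288C, and the labels do not state the read length. In that annotation 1 member, GLK1, overlaps another gene, YCL042W, whose counts were 1.48% to 3.99% of those of GLK1. The row YFR052C-A, numbered next to HXK1 and not in that annotation, had counts of 5.22% to 7.29% of those of HXK1. Strand use in counting was not given, so reads of these rows and of their neighbours may not be separable.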

How the data were processed

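RNA-seq was done on 9 libraries. The labels' protocols describe TRIzol extraction of total RNA, enzymatic removal of rRNA and Illumina TruSeq library construction. TopHat2 2.0.9 and HTSeq 0.6.0 are listed, with no role, per the submitters' processing notes. The authors deposited raw read counts per feature, 6357 rows by 9 columns. Build, annotation and strandedness of counting: not given in the sources used here. Of the columns, 7 matched a sample title; control12 and control13 matched the control group only and carry no replicate number. Names came from the RefSeq R64 gene table (5793 of 6357 rows matched), as did coding lengths.

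Counts were fitted in R 4.3.3 with edgeR 4.0.16: filterByExpr (6137 genes kept, all 8 members among them), TMM scaling, 1 mean per group over all 9 libraries with 6 residual degrees of freedom, quasi-likelihood F-tests, Benjamini-Hochberg adjustment over all genes tested and calls at an adjusted p under 0.05. SEs were taken from the F statistic; log2 CPM used a prior count of 2. Ratios used counts per coding length, with two-sided exact permutation tests over libraries. Paralogue identity came from global alignment in Biopython 1.88. Named were all members and, from each list, called genes (up to 4 by lowest p) or otherwise the gene of lowest p, plus the 3 genes most like each member. Members and lists were chosen with earlier results of these data known.

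Alternatives were DESeq2 1.42.0, RLE and upper-quartile factors, other filters, limma-voom (limma 3.58.1) with quality weights, 6-library fits, a replicate block and leaving out each library. A further one left out 39 rows, the mitochondrially encoded and the 20 most abundant other genes, with all members kept. Chi-square statistics per degree of freedom for pairs of libraries within a group were 13.2 to 175, so no library was counted as a duplicate. The scripts were tested on simulated data.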

Additional observations from a re-analysis of the deposited data

Results flagged for a closer look

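For 5 genes every Ind_B library lay below the control mean of log2 CPM and every Ind_Z library above it, as for 8.57% of all genes. The differences between the antifoams were 1.82 for HXK1, 1.31 for HXK2, 0.57 for PFK1, 0.57 for PFK2 and 0.41 for FBA1 (log2, Ind_Z against Ind_B). None of the 5 passed edgeR's quasi-likelihood test of that difference with all libraries (adjusted p of 0.0531, 0.0767, 0.135, 0.175 and 0.462). The control mean includes control13. Without it the fitted change in Ind_B turned positive for HXK2 (0.33), PFK2 (0.12) and FBA1 (0.11). HXK1 (−0.64 ± 0.19) and PFK1 (−0.08 ± 0.14, log2 fold change ± SE) stayed negative. For PFK1, however, Ind_B replicate 3 (1326 CPM) lay above both control1 (1226) and control12 (1314), so PFK1 did not keep the pattern without control13.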

How the results depend on the processing

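The count of members called moved with the tool and with single libraries. For Ind_B against control DESeq2 called 1 (HXK1, with 301 of 6218 genes), and leaving out each library in turn gave 0. For Ind_Z against control DESeq2 called 1 (HXK2, with 446 of 6095 genes) and limma-voom with quality weights 5 (with 2131 of 6137). Leaving out each library gave 0 to 5. For Ind_Z against Ind_B DESeq2 called 3 (with 631 of 6095 genes), limma-voom 4 (1501 of 6137) and the 6-library fit 5 (1251 of 6106). There leaving out each library gave 0 to 5, with 1 (HXK1) without control1 (78 of 6141 genes) or control12 (48 of 6149). For all 3 groups at once DESeq2 called 2 (with 911 of 5973 genes), upper-quartile factors 1 (118 of 6137) and limma-voom 4 (2294 of 6137). Leaving out each library again gave 0 to 5, with 1 without control12 (390 of 6149 genes). The 5 at the top of each leave-one-out range is the fit without control13, whose weight in limma-voom was 0.144 against 0.498 to 2.08 elsewhere. The other settings gave 0 each, apart from the replicate block. Over all genes edgeR called 9, 131, 26 and 123 in the order above; leaving out each library gave 0 to 332 (highest without control12), 16 to 1213, 0 to 1453 and 0 to 1467 (the last 3 highest without control13), and other settings 1 to 301, 59 to 2131, 14 to 1501 and 109 to 2294.

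With limma-voom the log2 change turned for HXK2 (0.22), PFK2 (0.12) and FBA1 (0.13) in Ind_B and for GLK1 (0.37), PGI1 (0.23) and ZWF1 (0.15) in Ind_Z, against control. Over the leave-one-out fits the log2 change ranged across 0 in Ind_B for HXK2 (−0.52 to 0.33), PFK2 (−0.396 to 0.12) and FBA1 (−0.6 to 0.11). In Ind_Z against control it did so for GLK1 (−0.35 to 0.46), EMI2 (−0.77 to 0.031), PGI1 (−0.2 to 0.27), FBA1 (−0.19 to 0.53) and ZWF1 (−1.31 to 0.23). The adjusted exact p of the HXK1 to HXK2 ratio ranged from 0.0107 to 0.0857 and that of GLK1 to EMI2 from 0.0375 to 0.45. The log2 difference of GLK1 to EMI2 in Ind_B against control ranged from −0.027 to 0.32 and that of PFK1 to PFK2 in Ind_Z against Ind_B from −0.024 to 0.057. The cause was not tested.

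Replicate numbers did not pair the antifoam libraries: same-numbered libraries correlated at −0.023, −0.238 and −0.442 in their deviations from the group means. With a replicate block Ind_Z against Ind_B called 2 members, HXK1 (1.8) and HXK2 (1.31), and 572 of 6106 genes; the blocked exact permutation test of the HXK1 to HXK2 ratio gave p = 0.25, the smallest it can give. No paired analysis with control was possible because 2 control columns carry no number. Upper-quartile factors moved the median of all genes in Ind_Z against Ind_B to −0.11. Counting error limits some shares: for EMI2 in control the SD over libraries (0.21 points) was below the reach of the Wilson intervals to either side (0.514 to 0.633 points).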
